A study of Populus yunnanensis with 9 samples.

Results

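In leaves of Yunnan poplar (Populus yunnanensis), 151 of the 41335 genes listed had higher transcript levels under cadmium (Cd) treatment than in the control (CK), and had similar mean levels when nitrogen was added with the Cd (Cd + N). These genes were chosen by the measured values themselves, as CPM, that is, reads on a gene scaled to the size of the library after TMM normalization, which equalizes the bulk of the genes between libraries. A member had a mean of at least 1 CPM over the 9 libraries, all Cd and all Cd + N values above all CK values, mean levels under Cd and under Cd + N of at least 1.5 times that of CK, and treated means that were each at least 0.8 times the other, called the band below. The upper limit of 200 members was not reached. The direction and the likeness of both treatments are therefore properties of the choice, and the values below are a description of these genes without a test.

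RNA was sequenced from leaves (the fourth, the fifth and the sixth from the apex) in 9 libraries, 3 for each group, from plants raised from cuttings in pots of soil. CK plants received neither agent. Cd plants received CdCl2 every 5 d for 60 d, up to 480 mg Cd per kg dry soil, and Cd + N plants received the same Cd together with NH4HCO3, up to 360 mg N per kg. The doses of Cd were equal, but the paper reports a higher Cd content in leaves under Cd + N than under Cd alone. All plants were seedlings of 4 months by the labels, and no group received nitrogen without Cd, so an effect of nitrogen alone was not measured. The 72 cuttings came from 15 trees and were planted 3 to a pot, and neither the labels nor the paper state which trees or how many plants entered a library, so genotype and treatment cannot be told apart for a single library. Each library had between 31952278 and 40101176 counts on genes. The genes are listed by identifier alone, in the numbering used for Populus trichocarpa, a related poplar. No annotation was used here, so no name or function is given to any member, and the leaf label was not checked against marker genes. Identifiers are given without their ending v3.0.

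Cadmium is a metal without a known nutritional role in land plants. It enters roots through carriers of essential metals such as iron, zinc and calcium, binds to thiol groups of proteins, and is bound in the cell by glutathione and phytochelatins, which are stored with it in the vacuole. In leaves it is known for loss of chlorophyll, oxidative stress and changes of defence and transport genes. Nitrogen supplies the amino acids from which thiols and proteins are made. Which of these processes the members belong to was not established.

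Of the 23384 genes with a mean of at least 1 CPM, 1746 (7.47%) had all Cd libraries above all CK libraries, 3072 (13.1%) had all Cd + N libraries above them, and 740 (3.16%) had both. The ratio limit of 1.5 was met on both sides by 405 genes. The mean under Cd + N was less than 0.8 times that under Cd in 82 of these genes, and the reverse held in 172, which left the 151 members (0.646%). Membership depended on single libraries: the same choice gave 361 genes without Cd replicate 1, 352 without CK replicate 2 and 253 without CK replicate 3, with 100, 146 and 140 of the members among them. It gave 148 to 177 genes without any of the other libraries, and fewer of the members than that: 97 without Cd replicate 2, 95 without Cd replicate 3, and 108, 99 and 99 without Cd + N replicates 1, 2 and 3, against 139 without CK replicate 1. Leaving out a library leaves fewer values that must not overlap, which by itself makes that condition easier to meet. A mirrored choice, with the same limits for genes lower than CK, gave 129 genes. Seen from Cd alone, 765 genes were above CK without overlap and by at least 1.5 times. Of these, 353 had a ratio of Cd + N to Cd under the band, 228 lay in it and 184 lay over it. Among the 228 genes in the band, 77 were not members, since Cd + N overlapped CK in 56 and had a ratio to CK under 1.5 in 21.

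The limits parted genes of nearly equal values. Potri.001G300800 and Potri.008G085100 were the members nearest to the limit of 1.5, with smaller ratios of 1.51 each. Potri.008G174800, with ratios of 1.504 under Cd and 1.49 under Cd + N, and Potri.018G105100, with 1.49 and 1.60, lay just outside. At the edge of the band, Potri.006G251200 and Potri.004G014700 were members with ratios of Cd + N to Cd of 0.80 each. Potri.017G004800, at 0.799, and Potri.005G195600, at 1.252, were not members.

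Over the 151 members the ratio of mean Cd to mean CK had a median of 2.16 (quartiles 1.77 and 3.27), and that of mean Cd + N to mean CK a median of 2.29 (quartiles 1.79 and 3.54). The same ratios over all genes of at least 1 CPM had medians of 1.01 and 0.995. The smaller of both ratios was under 2 in 65 members, at least 2 in 86, at least 4 in 28 and at least 10 in 7. Mean levels under Cd + N were above those under Cd in 78 members and below them in 73. In 150 members the Cd and the Cd + N libraries overlapped, which the band favours by construction, and the share over all genes was not counted. The exception was Potri.017G000100, named after its values were seen. It had 14.8, 17.6 and 10.7 CPM in the Cd libraries and 17.7, 18.0 and 18.0 CPM in the Cd + N libraries, against 10.3, 9.60 and 5.20 CPM in CK. In leaf samples of mixed cells, more cells of a type and more RNA per cell cannot be told apart in any of these values.

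**Figure D1:**
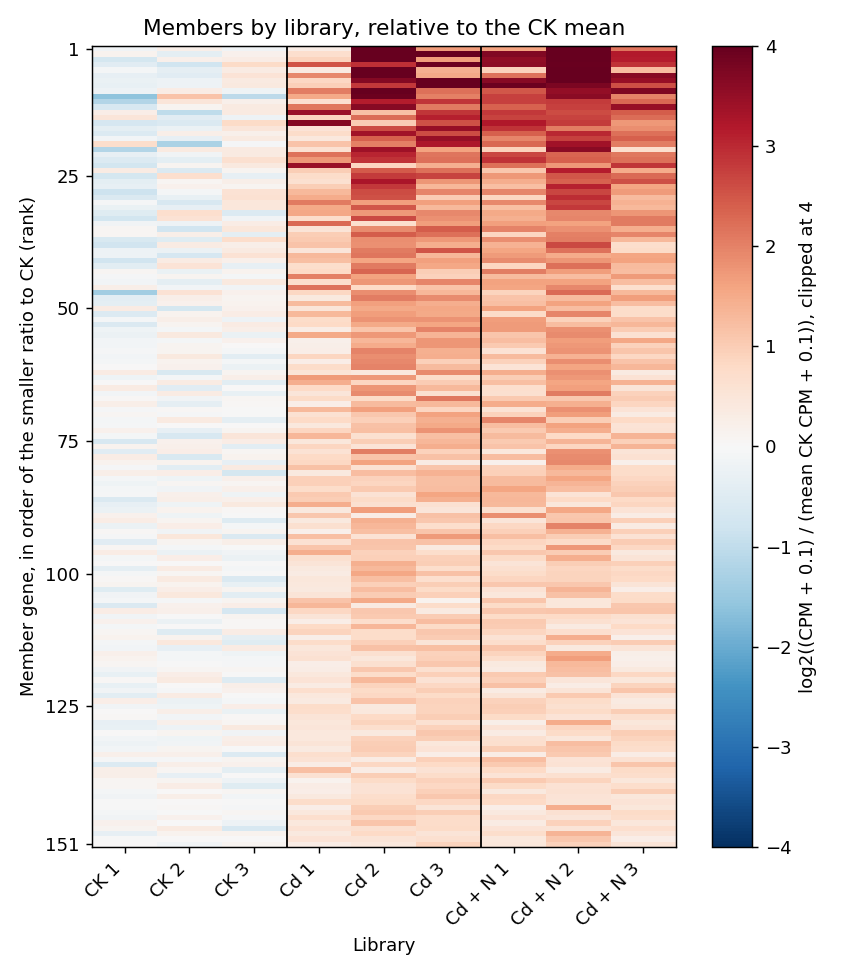
Each row is a member, ordered by the smaller of its ratios to CK, and each column a library. Colour gives log2((CPM + 0.1) / (mean CK CPM + 0.1)), clipped at 4. Cells past the clip share the same darkest colour. They are in the top rows, in replicates 2 of Cd and of Cd + N and, in some members, in Cd replicate 3. Potri.008G172500, Potri.009G045800 and Potri.015G031300 are such members.

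Most members were genes of low CPM, and a choice by ratios to CK can favour genes with low CK levels. The mean over the 9 libraries had a median of 5.31 CPM in the members and 16.8 CPM in all genes over the floor. In CK, 39 members had a mean under 1 CPM, 85 lay from 1 to 10 CPM, 25 from 10 to 100 CPM and 2 at 100 CPM or more. No member was among the 100 most abundant genes, and the best rank was 452. Levels can be compared between genes only per length, as FPKM, the reads scaled to the length of the gene and to the size of the library. The median FPKM of the members was 1.64 in CK, 6.08 under Cd and 5.32 under Cd + N, where all genes over the floor had a median of 7.29 in CK. For all genes, the medians under Cd and under Cd + N were not taken. The lengths behind the FPKM values, which the choice did not use, were multiples of 3 in all 34971 cases that could be recovered. Among genes over the floor they ran from 96 to 176595 bases, so they are not taken here as lengths of single coding sequences. What they cover was not established, and the FPKM comparisons between genes rest on them. The lengths had a median of 1383 bases in the members (quartiles 783 and 2616) and 1926 bases in all genes over the floor (quartiles 1008 and 3789). Whether the low level of the members goes with their length was not tested.

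The libraries of a treatment did not show the members to the same extent. Relative to the CK mean of each gene, the median over the members was 1.67, 2.35 and 2.31 in Cd replicates 1, 2 and 3. It was 2.11, 2.86 and 1.90 in Cd + N replicates 1, 2 and 3, and 0.937, 1.04 and 1.05 in the CK libraries. Cd replicate 1 was thus the treated library nearest to CK, and Cd + N replicate 2 the one farthest from it. Over all genes above the floor, the same medians lay between 0.972 and 1.00 in the 9 libraries. Cd replicate 1 was the lowest of the Cd libraries in 105 members, that is 69.5%, against 41.9% of all genes over the floor. The share was 68.8% of the 353 genes higher under Cd with a ratio of Cd + N to Cd under the band and 51.1% of the 184 over it. Cd + N replicate 3 was the lowest Cd + N library in 78 members, or 51.7%, against 26.4% of all genes over the floor, 33.4% of the genes under the band and 70.7% of those over it. The overlap of single libraries also decided membership. A further 147 genes met each other condition and were kept out by the overlap of Cd replicate 1 alone, 89 by CK replicate 2 alone and 64 by CK replicate 3 alone, while the other 6 libraries each kept out between 8 and 14.

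**Figure D2:**
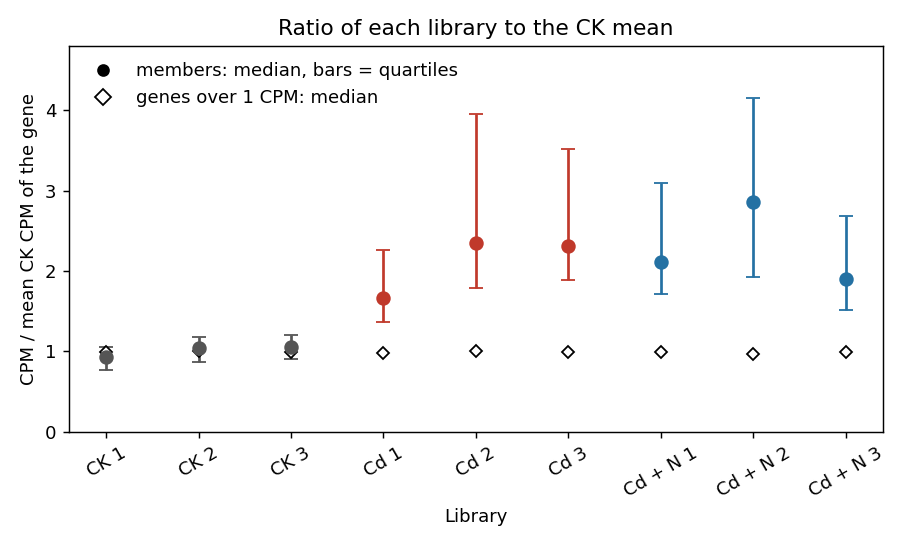
The vertical axis gives CPM over the mean CK CPM of the gene for each of the 9 libraries. Filled points are medians over the 151 members with bars for the quartiles, and open diamonds are medians over all genes of at least 1 CPM. The members' medians were lowest among treated libraries in Cd replicate 1, at 1.67, and highest in Cd + N replicate 2, at 2.86.

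The largest ratios to CK belonged to genes that were abundant in 1 library of each treatment, and that library had the replicate number 2 in both. Potri.003G213700 had 0, 0.0312 and 0 CPM in CK, 0.0342, 46.6 and 0.257 CPM under Cd, and 0.234, 54.8 and 0.389 CPM under Cd + N, in the order of the replicates. It was therefore high in 2 libraries and near 0 in the other 7. Its counts were 0, 1 and 0 in CK, so its ratios to CK, 1505 for Cd and 1777 for Cd + N, rest on a single read. Counting error of that read alone gives a 95% interval from 270.1 to 59446 for Cd and from 318.9 to 70188 for Cd + N. Counts of sequenced reads are not independent molecules, and such intervals cover counting error only.

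Potri.008G172500 had 0.130, 0.06235 and 0.140 CPM in CK, 0.239, 44.3 and 5.11 CPM under Cd, and 2.66, 45.4 and 1.82 CPM under Cd + N. Potri.007G111500 had 0.104, 0.281 and 0.307 CPM in CK, 0.513, 27.5 and 0.950 CPM under Cd, and 3.75, 18.8 and 2.80 CPM under Cd + N. Potri.010G057000 had 1.90, 1.56 and 2.57 CPM in CK, 2.63, 108 and 5.52 CPM under Cd, and 3.86, 98.0 and 4.83 CPM under Cd + N. In all 3 of these genes replicate 2 was far above the other libraries of its treatment, while CK replicate 2 was not raised. Without replicate 2 of Cd and of Cd + N, a comparison added after these values were seen, the ratios of Potri.010G057000 to CK were 2.03 and 2.16 in place of 19.3 and 17.7. Those of Potri.008G172500 were 24.1 and 20.2 in place of 149 and 150, and those of Potri.007G111500 were 3.17 and 14.2 in place of 41.9 and 36.7.

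A single library held over 50% of the summed CPM of its group in 40 members under Cd and in 31 under Cd + N. A single library did so in both treatments in 14 members, and in 13 of these the library was replicate 2 each time. For none of these counts was the share over all genes taken, so they are not read as particular to the members. Of the 14, 1 member did not have replicate 2 each time. That member was Potri.005G117100, with 1.09, 2.11 and 4.98 CPM under Cd, against 0.782, 0.125 and 0.419 CPM in CK, and 2.55, 5.43 and 2.16 CPM under Cd + N. Replicate 2 was the highest library of both treatments in 54 members, or 35.8%, against 20.9% of all genes over the floor. Among genes higher under Cd, the share was 22.7% of the 353 with a ratio of Cd + N to Cd under the band and 40.8% of the 184 over it. The highest library had the same number in both treatments, whichever it was, in 44.4% of members and 41.6% of all genes over the floor. Deviations of the members from their group means, in log2(CPM + 0.5), had a correlation of 0.74 between Cd replicate 2 and Cd + N replicate 2 across the 151 members, and of 0.47 across the 27378 genes kept for testing. Across the members the correlation was 0.46 between replicates 1 of Cd and of Cd + N, and 0.12 between replicates 3. It was 0.50 between Cd replicate 3 and Cd + N replicate 1, and 0.38 between Cd replicate 1 and Cd + N replicate 3. The other pairs of different number between these treatments had negative values. Genes are not independent replicates, and the members were chosen on these libraries. With CK replicate 2 the correlation across the members was 0.15 for Cd replicate 2 and -0.0082 for Cd + N replicate 2. What libraries of the same number share is not stated in the sources used here, and its part in the levels of the members was not tested. With both replicates 2 left out, 127 members had both ratios at 1.5 or more. The choice favours this, since the remaining treated libraries of each member were also above CK. All conditions together, without both replicates 2, were met by 176 genes, 86 of them members.

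**Figure D3:**
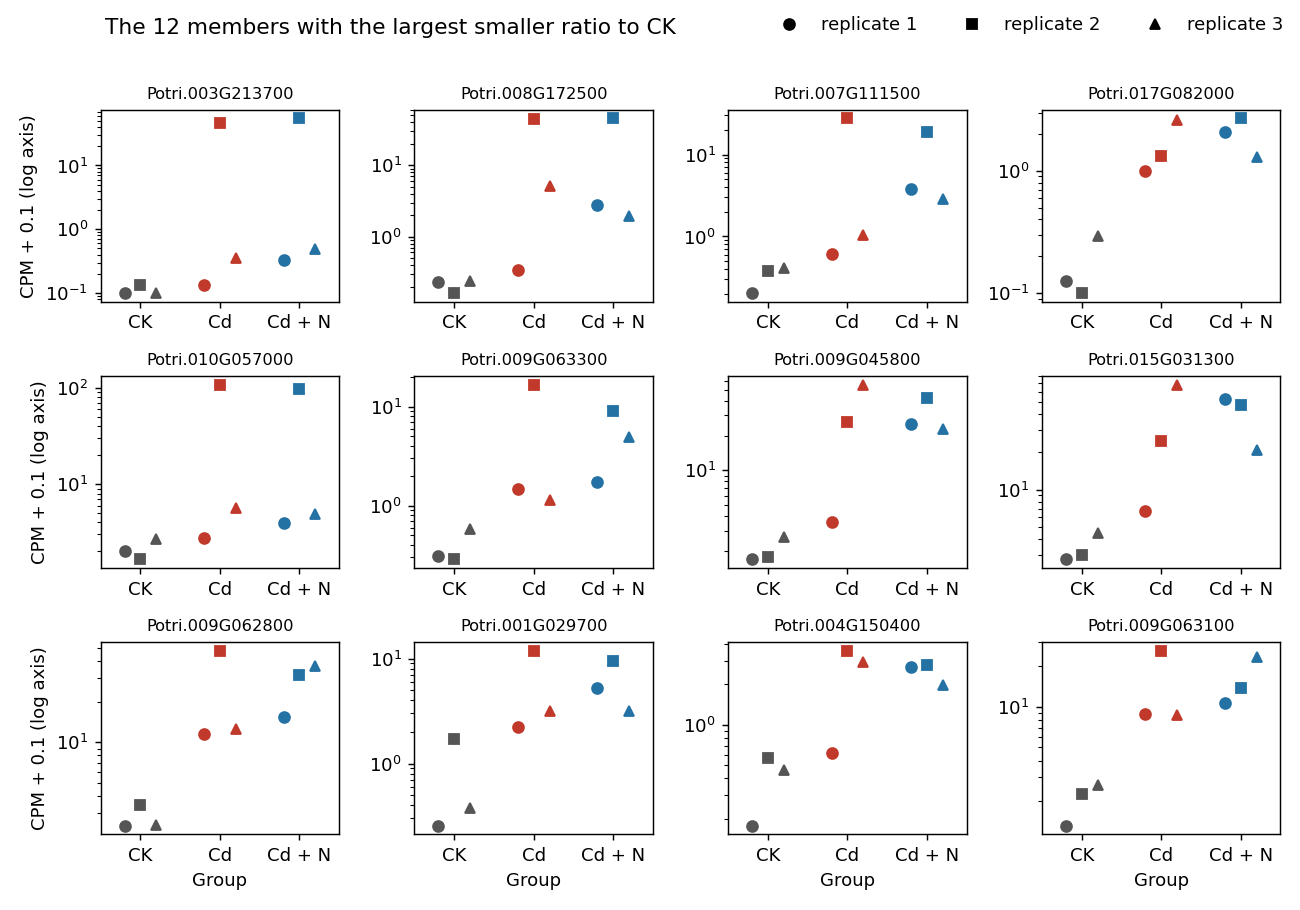
Each panel gives CPM + 0.1 on a log axis for 1 of the 12 members with the highest smaller ratio to CK, by group, with circles, squares and triangles for replicates 1, 2 and 3. In Potri.003G213700, Potri.008G172500, Potri.007G111500 and Potri.010G057000 the squares of Cd and Cd + N stand far above the other points.

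**Figure D4:**
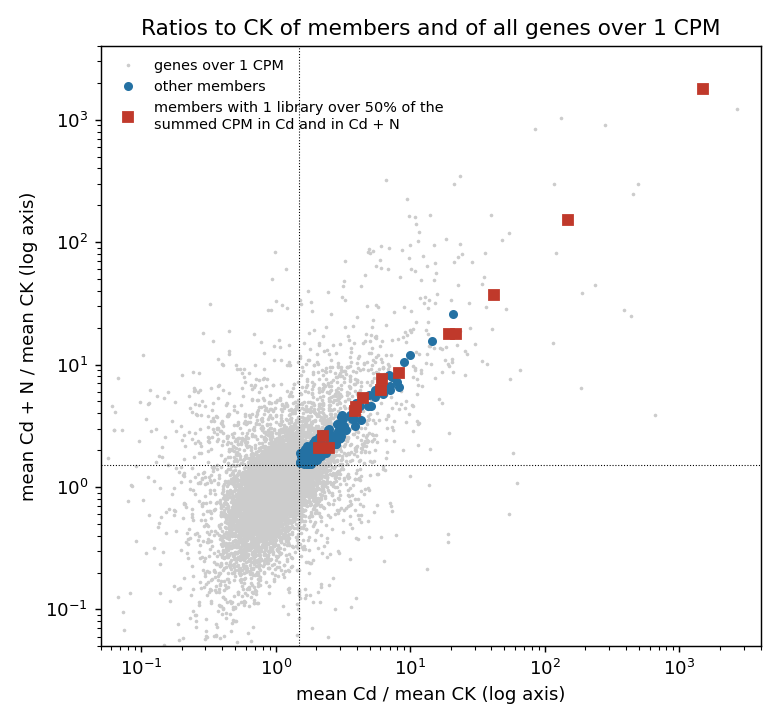
The axes give mean Cd over mean CK and mean Cd + N over mean CK, both on log axes, for genes of at least 1 CPM (grey) and the 151 members, and dotted lines mark the limit of 1.5. Genes with a ratio under 0.05 are not drawn. The 14 members with over 50% of the summed CPM in 1 library of each treatment (squares) include the 3 with the largest ratios.

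Of the 12 members with the largest ratios, 6 were among the 14 with over 50% in 1 library of each treatment, namely the 4 above, Potri.001G029700 and Potri.009G063300. Potri.001G029700 had 0.156, 1.62 and 0.279 CPM in CK, 2.15, 11.8 and 3.08 CPM under Cd, and 5.15, 9.395 and 3.04 CPM under Cd + N. Its replicates 2 held 69.2% of the summed CPM under Cd and 53.4% under Cd + N, and CK replicate 2 was the highest control. Potri.017G082000 was low throughout, with 0.0261, 0 and 0.196 CPM in CK, 0.889, 1.23 and 2.52 CPM under Cd, and 1.99, 2.59 and 1.19 CPM under Cd + N. The lowest treated library was 4.54 times the highest CK library, the widest gap of all members. This gap rests on 26 reads in Cd replicate 1 and 7 reads in CK replicate 3. Potri.009G045800 had 1.59, 1.68 and 2.54 CPM in CK, 3.49, 26.0 and 55.2 CPM under Cd, and 25.3, 41.9 and 22.6 CPM under Cd + N. Potri.015G031300 had 2.68, 2.90 and 4.44 CPM in CK, 6.63, 24.3 and 68.3 CPM under Cd, and 52.4, 46.6 and 20.4 CPM under Cd + N. In both genes Cd replicate 1 was the treated library nearest to CK and Cd replicate 3 the highest of all. Potri.004G150400 ranged from 0.0782 to 0.468 CPM in CK, from 0.513 to 3.44 CPM under Cd and from 1.87 to 2.70 CPM under Cd + N. Potri.009G063300, Potri.009G062800 and Potri.009G063100 complete the 12 and are described below with their neighbours.

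How far treated libraries stood from CK differed between members. The lowest treated library was 1.18 times the highest CK library in the median member, less than 1.1 times in 49 members, at least 1.5 times in 24 and at least 2 times in 7. The 7 were Potri.017G082000, the 3 genes on chromosome 9 and 2 genes on chromosome 6 described below, and Potri.002G240900. The last had 2.35, 3.49 and 3.41 CPM in CK, 7.52, 9.82 and 8.55 CPM under Cd, and 7.17, 9.53 and 7.35 CPM under Cd + N. Its mean was 3.08 ± 0.639 CPM in CK, against 8.63 ± 1.15 and 8.02 ± 1.31 CPM with Cd and with Cd + N (SD, n = 3). Some members with small ratios varied little. The mean of Potri.017G080000 was 12.1 ± 0.178 CPM in CK, against 20.7 ± 0.803 and 18.6 ± 2.25 CPM with Cd and with Cd + N (SD, n = 3). The coefficient of variation within a group had a median over the members of 23.8% in CK, 33.6% under Cd and 26.5% under Cd + N. Over all genes above the floor the medians were 15.4%, 18.4% and 18.6%.

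The members with the highest mean CPM had ratios of 1.68 to 4.61 by the smaller of both. Potri.002G072100 had 158, 226 and 121 CPM in CK, 283, 326 and 239 CPM under Cd, and 277, 317 and 340 CPM under Cd + N. Potri.007G140500 had 137, 176 and 124 CPM in CK, 229, 284 and 282 CPM under Cd, and 247, 400 and 207 CPM under Cd + N. In both genes CK replicate 2 was the highest control, and the lowest treated library was 1.05 and 1.17 times it, in that order. Potri.009G118100 had 41.3, 58.3 and 64.8 CPM in CK, 85.9, 525 and 186 CPM under Cd, and 150, 281 and 328 CPM under Cd + N. Its Cd libraries thus spread more widely than its Cd + N libraries. Potri.010G055400 had 50.6, 82.2 and 95.2 CPM in CK, 133, 216 and 226 CPM under Cd, and 245, 177 and 192 CPM under Cd + N. Potri.016G083500 had 19.8, 48.6 and 29.9 CPM in CK, 54.5, 204 and 116 CPM under Cd, and 88.2, 127 and 139 CPM under Cd + N. Potri.008G175000 had 43.0, 71.1 and 61.8 CPM in CK, 86.7, 242 and 112 CPM under Cd, and 77.8, 207 and 83.5 CPM under Cd + N. In the last gene replicate 2 was again the highest library of each group, CK included, and its ratios without Cd and Cd + N replicate 2 were 1.69 and 1.37, in place of 2.50 and 2.09. By the deposited FPKM, Potri.008G175000 was the most abundant member under Cd, with a mean of 86.7 FPKM in CK, 234 under Cd and 186 under Cd + N.

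Some members had neighbouring identifiers, which in this numbering follow the order of genes along a chromosome. Among the 144 members on numbered chromosomes, the next gene over the floor on either side was a member in 8 of 287 cases, or 2.79%, where 0.634% of the genes on these chromosomes were members. Each pair of neighbouring members counts from both sides here, so these cases are not independent. Within 5 genes on either side the share was 1.81%. Members within 5 genes of each other formed 9 groups, and 2 of them held 3 members each. On chromosome 9, Potri.009G062800, Potri.009G063100 and Potri.009G063300 followed each other in the list of genes over the floor. Potri.009G062800 had 2.32, 3.34 and 2.35 CPM in CK, 11.4, 47.5 and 12.5 CPM under Cd, and 15.4, 31.3 and 37.0 CPM under Cd + N. Potri.009G063100 had 1.23, 2.15 and 2.54 CPM in CK, 8.79, 25.8 and 8.60 CPM under Cd, and 10.5, 13.6 and 23.1 CPM under Cd + N. Potri.009G063300 had 0.209, 0.187 and 0.475 CPM in CK, 1.37, 16.6 and 1.03 CPM under Cd, and 1.64, 8.94 and 4.804 CPM under Cd + N. Replicates 2 held 87.4% of the summed CPM of Potri.009G063300 under Cd and 58.1% under Cd + N. All 3 genes were highest in replicate 2 of the Cd libraries, and the first 2 were highest in replicate 3 of the Cd + N libraries. Potri.009G063100 and Potri.009G063300 had the same length of 1083 bases, and Potri.009G062800 had 1149.

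On chromosome 6, Potri.006G006600 had 0.730, 0.842 and 1.23 CPM in CK, 4.58, 8.40 and 4.42 CPM under Cd, and 6.56, 5.08 and 4.36 CPM under Cd + N. Potri.006G006800 had 0.730, 0.811 and 1.76 CPM in CK, 3.93, 8.80 and 5.39 CPM under Cd, and 8.87, 6.18 and 5.43 CPM under Cd + N. Potri.006G007100 had 1.56, 2.24 and 1.23 CPM in CK, 3.11, 6.40 and 4.72 CPM under Cd, and 4.22, 4.59 and 3.04 CPM under Cd + N. The third was higher than both in CK replicates 1 and 2. Whether neighbouring members are near-identical copies was not known, and the authors' counting could then have split reads between them, so the values of single genes in these groups are uncertain. No sequence of any member was at hand.

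**Figure D5:**
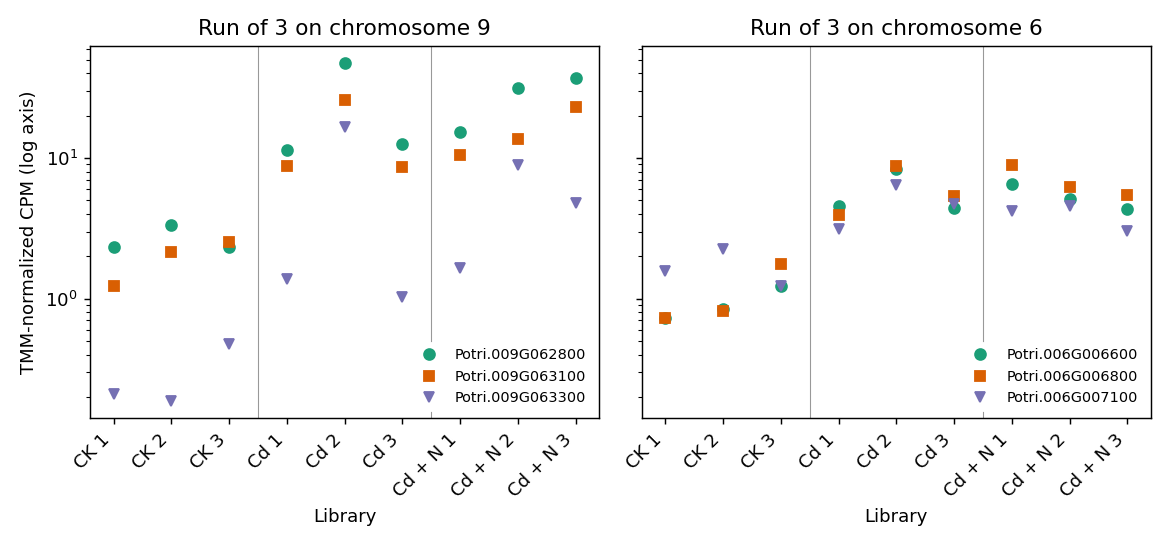
TMM-normalized CPM on a log axis in the 9 libraries for the 3 neighbouring members on chromosome 9 (left) and the 3 on chromosome 6 (right). On chromosome 9 the 3 genes are highest under Cd in replicate 2, with 47.5, 25.8 and 16.6 CPM.

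The comparison across all genes was run for completeness, and nothing is read from it on the members, since the same libraries chose them. All 151 members were among the 27378 genes tested with edgeR's quasi-likelihood test, with Benjamini-Hochberg adjustment over all of them and a threshold of 0.05. In Cd against CK, 0 members and 0 genes in all (0%) were past the threshold. At an unadjusted p under 0.05, 137 members were higher, where 5.6% of all genes were. DESeq2 called 68 of the 148 members to which it gave an adjusted p, and 1.35% of all genes as higher. With the replicate number as a block, 1 member and 0.011% of all genes were called as higher. In Cd + N against CK, edgeR called 2 members as higher, where 0.201% of all genes were called as higher, and 144 members were under an unadjusted p of 0.05, where 9.44% of all genes were higher. The 2 members were Potri.006G006600 and Potri.002G243700. The latter had 3.75, 4.55 and 4.53 CPM in CK, 8.38, 7.92 and 9.94 CPM under Cd, and 10.4, 11.04 and 8.28 CPM under Cd + N. With the replicate number as a block, 43 members were past the threshold in this comparison, and 2.95% of all genes were called as higher. DESeq2 called 90 of 148 members there, and 4.21% of all genes as higher. In Cd + N against Cd, edgeR called 0 members and 0% of all genes, and 0 members had an unadjusted p under 0.05, where 12.5% of all genes did. DESeq2 called 0 members there and 3.64% of all genes in either direction, and edgeR with the block 0 members and 1.14%, while the band itself kept genes that differ between these groups out of the members. Without Cd replicate 1, edgeR called 32 members and 0.966% of all genes as higher in Cd against CK, and 26 members and 0.959% of all genes in Cd + N against CK. The latter count was 1 without CK replicate 2 and 0 without any other single library, and that for Cd against CK was 0 without any library but Cd replicate 1.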

How the data were processed

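RNA of leaves was sequenced in 9 libraries, 3 per group, grouped by the sample titles. The authors deposited read counts per gene without normalization, and FPKM values, which equalled the counts scaled to a length per gene and the library total within a relative tolerance of 1e-06. Per the submitters' processing notes TopHat2 2.0.12 and Bowtie2 2.0.6 were used, in roles not given there. The counting tool, its strand setting and the genome build are not given in any source used here. CPM were computed with TMM factors over all genes. The members and lists were chosen with earlier results of these data known. edgeR 4.0.16 (quasi-likelihood test, all 9 libraries, filterByExpr with a minimum count of 10), DESeq2 1.42.0 and limma 3.58.1 were run in R 4.3.3, adjusted over all genes, after a check on simulated counts, and plots were drawn with matplotlib 3.10.9. In CK and Cd + N, libraries of the same number deviated together, with correlations of 0.22, 0.36 and 0.14 across genes, all over the limit of 0.1, and nothing in the labels says what a number shares. In the other comparisons 1 of 3 pairs was under it. Over all comparisons, 7 of 9 pairs of the same number and 4 of 18 pairs of different numbers were over the limit. The highest of the latter, CK replicate 3 with Cd + N replicate 1, had 0.316.

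The genes named are the 12 members with the largest smaller ratio to CK, the 6 with the highest mean CPM, those nearest to a limit, and others stated as named after their values were seen, which include the members of neighbouring groups, those with a wide gap, Potri.005G117100, Potri.017G080000 and the members called by edgeR. Gene lists by function, cell type markers and promoter motifs had been planned and were not run, since no annotation was used here. With 3 libraries per group from plants of unstated number, p-values set the group difference against the spread between libraries, which may be technical.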

Additional observations from a re-analysis of the deposited data

How the results depend on the processing

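The number of genes that met all conditions stayed between 145 and 207 with other scaling factors, the deposited FPKM or no floor, and 115 to 151 of the members were among them. It was 78 with a floor of 5 CPM, 86 with a ratio limit of 2 and 71 with treated means each at least 0.9 times the other, where fewer genes can pass by construction. Leaving out 1 library, which eases the condition on overlap, gave 148 to 361 genes, with 95 to 146 of the members among them. After the data were seen, leaving out replicate 2 of Cd and of Cd + N together was added and gave 176 genes, 86 of them members, and group medians gave 137 genes, 91 of them members. The median ratios were taken over the same 151 members in each setting run on them, and moved by less than the spread between replicates. The members were chosen by these ratios in the same libraries, which limits how far the medians could move. The number of members called in Cd against CK, 0 with edgeR, was 68 with DESeq2, 0 with limma and 0 to 32 with 1 library left out. Over all genes, DESeq2 called 388 as higher there, limma 0, and edgeR with 1 library left out 0 to 270. In Cd + N against CK, 2 with edgeR, the number of members was 90 with DESeq2, 1 with upper-quartile factors, with relative log expression factors or without a filter, 5 when only these groups were fitted, 7 and 9 with limma at pseudocounts of 1 and 0.1, and 0 to 26 with 1 library left out. Of all genes, edgeR called 55 as higher and DESeq2 1239. Upper-quartile factors gave 54, relative log expression factors 53, no filter 57 and only these groups 65. Limma gave 183 and 151, with 135 of the 151 members tested, and edgeR with 1 library left out 0 to 268. With the replicate block the number of members called was 1 in Cd against CK, 43 in Cd + N against CK and 0 in Cd + N against Cd, where it called 3, 809 and 313 of all genes, the first 2 as higher and the last in either direction. The cause of these differences was not tested. In Cd + N against Cd it was 0 under each alternative run, while DESeq2 called 1069 of all genes, limma at a pseudocount of 1 called 61 with a filter and 25 without and at 0.1 called 0, and edgeR called 22 without CK replicate 2 and 0 to 2 in the other alternatives but the block. The sum over the CK libraries was under 30 counts in 6 members. Among them were the members ranked 1 to 4 by the smaller ratio, with sums of 1, 12, 24 and 8 counts, so the largest ratios rest on few CK reads.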

Other observations

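The members were found on all 19 numbered chromosomes, from 1 member on chromosome 19 to 16 on chromosome 10. As a share of the genes over the floor they ranged from 0.165% on chromosome 19 to 1.27% on chromosome 9, and 7 members had identifiers outside the numbered chromosomes. These 7 included 2 pairs of consecutive identifiers. Potri.T023800 had 2.61, 2.18 and 2.21 CPM in CK, 3.62, 3.25 and 4.62 CPM under Cd, and 3.84, 7.59 and 2.73 CPM under Cd + N. Potri.T023900 had 4.197, 3.43 and 3.21 CPM in CK, 5.33, 5.63 and 6.88 CPM under Cd, and 6.79, 10.3 and 4.26 CPM under Cd + N. Both were highest in the same library of each treatment, Cd replicate 3 and Cd + N replicate 2. All of these genes were named after their values were seen.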
